A study of Mus musculus with 24 samples.

Results

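The comparison is between cerebella of mice that lack Derlin-2 in the central nervous system and cerebella of floxed controls, over vehicle and 4-phenylbutyrate (4PBA) injections together. Its members are the 8 of the 24 arrays of the series whose titles start with Derlin-2, 4 of them knockout (KO) and 4 control. All mice were C57BL/6. KO mice carried Derl2 flox/flox and a Cre recombinase under the nestin promoter, and controls were Derlin-2 flox/flox without Cre, so the Cre transgene and the deletion cannot be told apart. Either water (vehicle) or 4PBA, a chemical chaperone, at 200 mg/kg was injected into the abdomen daily from postnatal day 14 to day 28, when the cerebellum was taken. Each genotype therefore has 2 vehicle arrays and 2 4PBA arrays. The other 16 arrays belong to the Derlin-1 line, made in the same way from Derl1 flox/flox mice: KO and Derlin-1 flox/flox control with vehicle, with 4PBA, or, for arrays that carry a letter and no 4PBA in their titles, with no injection named. They enter the difference from that line, the choice of its 10 leading genes and an alternative fit of all 24 arrays. The labels do not say whether arrays of a group came from separate animals, so p-values measure the spread between these arrays.

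Derlins sit in the membrane of the endoplasmic reticulum (ER) and work with ubiquitin ligases in ER-associated degradation (ERAD), which draws misfolded proteins out of the ER for destruction by the proteasome. When misfolded proteins build up, the sensors IRE1, ATF6 and PERK switch on the unfolded protein response: IRE1 and ATF6 raise chaperones and ERAD parts through ER stress response elements in promoters, and PERK acts through ATF4 and CHOP on amino acid genes. The nestin promoter is active in neural progenitors, from which neurons, astrocytes and oligodendrocytes arise, whereas microglia and blood vessel cells come from other lineages. Derl2 transcript left in a KO array can come from cells without Cre or from a transcript that keeps the probed part, and these cannot be told apart.

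Levels are log2 intensities relative to the 75th percentile of the same array, and a change is the KO mean minus the control mean within injections, so that 1 unit is a factor of 2. On the 8 arrays between 57.7% and 66.9% of spots were well above background. Purkinje cell markers were strong on every array, as for Itpr1 with levels from 6.66 to 7.03, as were granule neuron markers such as Reln at 3.90 to 4.12. All 8 arrays lay on 1 slide, with controls in its first columns and KO arrays in its last, so slide position and genotype cannot be told apart. Vehicle arrays lay in 1 row of the slide and 4PBA arrays in the other, so slide row and injection cannot be told apart either. The array labelled Derlin-2 KO vehicle 1 has a control level of Derl2, so results are given with all 8 arrays and without that array (7 arrays).

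The targeted gene was examined first. On the brighter Derl2 probe (A_51_P498831) the control levels were 1.45 and 1.56 with vehicle and 1.59 and 1.40 with 4PBA. The KO levels were 0.51 on the array labelled KO vehicle 2 and 0.18 and 0.24 with 4PBA, all below every control. The array labelled KO vehicle 1 had 1.73, above every control. On the second Derl2 probe (A_55_P2178203) controls lay between -0.55 and -0.40, the same 3 KO arrays at -1.94, -2.11 and -2.40, and the array labelled KO vehicle 1 at -0.39. Both probes thus divide the arrays in the same way. The change of Derl2 was -0.83 (SE 0.29, limma adjusted p 0.406) over 8 arrays and -1.17 over 7, which has no test because that array was singled out by its Derl2 level. Derl1, which encodes the close relative Derlin-1, had levels from 1.0 to 1.23 in controls and from 0.90 to 1.24 in KO arrays, a change of -0.04 (SE 0.06, adjusted p 0.813).

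**Figure D1:**
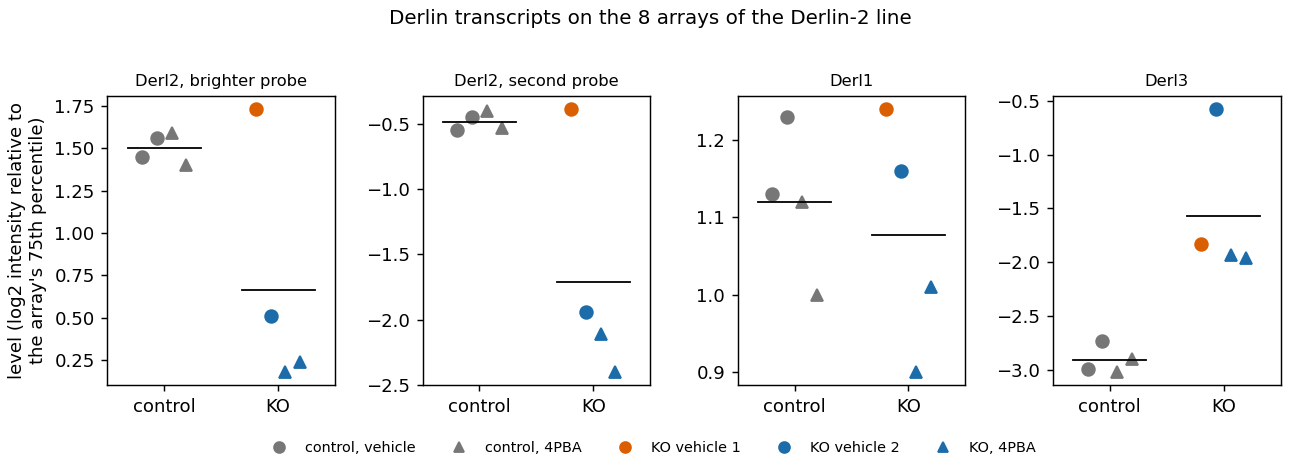
Levels of the Derlin transcripts on each of the 8 arrays (y axis, log2 intensity relative to the 75th percentile of the array), with controls on the left and KO arrays on the right of each panel, circles for vehicle, triangles for 4PBA and a line at the group mean. On both Derl2 probes the array labelled KO vehicle 1 (orange) lies at or above the controls and the 3 other KO arrays below them, while on Derl3 all 4 KO arrays lie above all 4 controls.

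Derl3 encodes the third Derlin, which the unfolded protein response is known to induce. Its control levels were -2.99 and -2.73 with vehicle and -3.02 and -2.90 with 4PBA. The KO levels were -1.83 on vehicle 1, -0.58 on vehicle 2 and -1.93 and -1.96 with 4PBA. All 4 KO arrays lay above all 4 controls, including the array labelled KO vehicle 1 that has Derl2 at the control level. The change was 1.34 (SE 0.28, adjusted p 0.379) over 8 arrays and 1.52 (adjusted p 0.28) over 7, so it did not pass after adjustment over all genes. Over all genes, 1.69% (270 of 15971 with values on every array) had all 4 KO arrays above all 4 controls, and 3.11% had all 4 below.

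Over all features 16363 genes were tested, and 1 of them (0.00611%) passed an adjusted p of 0.05 over 8 arrays. Without adjustment 1857 genes (11.3%) had p under 0.05, 630 higher in KO (3.85%) and 1227 lower (7.5%). Over 7 arrays no gene passed limma's adjusted p (0%), and 1890 (11.6%) had an unadjusted p under 0.05, with 687 higher (4.2%) and 1203 lower (7.35%). The passing gene was 4932413F04Rik, named here because it was the only one. Its control levels were -6.14, -6.51, -7.33 and -7.08, where the probe was not well above background, and its KO levels were -4.12 and -4.29 with vehicle, above background, and -5.33 and -5.56 with 4PBA, not above it. The adjusted p was 0.0236 over 8 arrays and 0.122 over 7. The probe entered the test only through the vehicle KO arrays, where it is high, and 6 of its 8 values were not above background, so its p supports no statement on KO as a whole and no fold is given. Leaving out any array but control vehicle 2 ended that call, with adjusted p from 0.0566 to 0.207, and normexp gave 0.328.

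Among genes well above background on all 8 arrays, none passed over 8 arrays. The 5 with the smallest p in each direction follow, with no claim of a change. Higher in KO were the predicted gene Gm32819, at 0.59 (SE 0.07, adjusted p 0.317), Cox6a2, a heart and muscle subunit of cytochrome c oxidase, at 1.07 (SE 0.15, adjusted p 0.362), the cilium gene Lca5 at 0.41, Mycbpap at 0.38 and the sphingomyelin synthase Sgms2 at 0.56. Cox6a2 control levels were -4.00, -3.83, -3.91 and -3.74, and its KO levels -2.96, -2.49, -3.10 and -2.65. Both vehicle KO arrays and both 4PBA KO arrays were above every control for Cox6a2, and its change over 7 arrays was 1.14. Under normexp background correction the change was 0.64 for Cox6a2, 0.33 for Gm32819 and 0.36 for Sgms2. A second Lca5 probe, well above background on 7 arrays, had 0.00 (SE 0.11). Lower in KO were 1190007I07Rik at -0.63 (SE 0.06, adjusted p 0.125), the phosphate transporter Slc34a3 at -0.53, Prima1, which anchors acetylcholinesterase in membranes, at -0.66, Bpifa5 at -0.44 and the cytidine deaminase Cda at -0.63. The 2 dimmer Prima1 probes had -0.47 (SE 0.12) and -0.07 (SE 0.23). 1190007I07Rik had control levels of 1.02, 1.1, 0.85 and 1.05 and KO levels of 0.43, 0.48, 0.31 and 0.30, with no overlap. It passed in 2 alternatives, at an adjusted p of 0.00271 with all 24 arrays in the fit and 0.0276 with an intensity trend and robust moderation, and over 7 arrays it had 0.278.

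ER chaperones, folding enzymes and stress sensors formed a list of which 26 members were tested. None passed the adjusted test. Of the 26, 19 were higher in KO and 7 lower, with a median change of 0.26 over 8 arrays and 0.31 over 7, beside -0.02 for all genes tested. At an unadjusted p under 0.05, 14 of 26 were higher and 0 lower, against a background of 3.85% higher; without control 4PBA 2 the count was 8, and without control vehicle 1 it was 9. For 8 of 26 all 4 KO arrays lay above all 4 controls (background 1.69%), and for 10 of 26 the 3 KO arrays other than vehicle 1 did so (background 3.55%).

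Hspa5 encodes BiP, the main ER chaperone of the Hsp70 family. Its control levels were 4.33, 4.56, 4.50 and 4.25 and its KO levels were 4.77 and 5.36 with vehicle and 4.71 and 4.99 with 4PBA. No KO array overlapped the controls, and the change was 0.55 (SE 0.15, adjusted p 0.384) over 8 arrays and 0.65 (adjusted p 0.31) over 7. Sdf2l1, a partner of BiP, had control levels of -1.44, -1.36, -1.07 and -1.61 and KO levels of -0.82, 0.01, -0.72 and -0.31. Its change of 0.91 (SE 0.21, adjusted p 0.379) was the largest of the list, and was 1.06 over 7 arrays. Calr encodes calreticulin, a lectin chaperone of glycoproteins, with control levels of 3.02, 2.97, 3.08 and 2.74 and KO levels of 3.5, 3.74, 3.15 and 3.38. The difference was 0.49 (SE 0.11, adjusted p 0.379), or 0.51 over 7 arrays, and again no KO array overlapped the controls.

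Pdia3, a disulfide isomerase that works with calreticulin, had the smallest p of the list, with a change of 0.42 (SE 0.09, adjusted p 0.379). Its control levels were 0.91, 1.01, 0.95 and 0.81 and its KO levels 1.34, 1.59, 1.11 and 1.30. Ero1b, which reoxidises those isomerases, was 0.29 higher (SE 0.07, adjusted p 0.379). Hsp90b1, the ER form of Hsp90, had control levels of 4.35, 4.43, 4.33 and 4.13 and KO levels of 4.82, 5.34, 4.40 and 4.66, so that 1 KO array with 4PBA lay among the controls. The change was 0.50 for Hsp90b1, 0.53 for Pdia6, 0.44 for the secreted protein gene Manf and 0.43 for Creld2. Xbp1, the transcription factor that IRE1 splices, had a total transcript 0.38 higher (SE 0.16, adjusted p 0.434). The array labelled KO vehicle 2 had the highest level for Hspa5, Sdf2l1, Calr, Pdia3 and Hsp90b1, and without it the change was 0.33 for Pdia6, 0.28 for Manf and 0.21 for Xbp1. In contrast to the chaperones, the sensors lay near 0: Atf6 at -0.02, Eif2ak3, which encodes PERK, at -0.08 and Ern1, which encodes IRE1, at -0.13. The co-chaperone gene Dnajb9 lay between 1.60 and 1.78 in controls and between 1.63 and 1.87 in KO arrays. Pdia3, Ero1b and Calr were named by their p, and the other members after their values were seen.

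The array labelled KO vehicle 1 lay above all 4 controls for 16 of the 26 chaperone genes, against 23.2% of all genes. It lay below all 4 controls for 0 of 26, against 13.7%. Its median deviation from the control mean over the list was 0.18, between 0.09 and 0.42 on the 3 other KO arrays, and controls lay from -0.11 to 0.07. Of the 10 chaperone genes for which the 3 other KO arrays lay above all controls, it did so too for 8, beside 47.7% of all genes with that pattern. That array therefore stood with the KO arrays for chaperones and with the controls for Derl2.

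**Figure D2:**
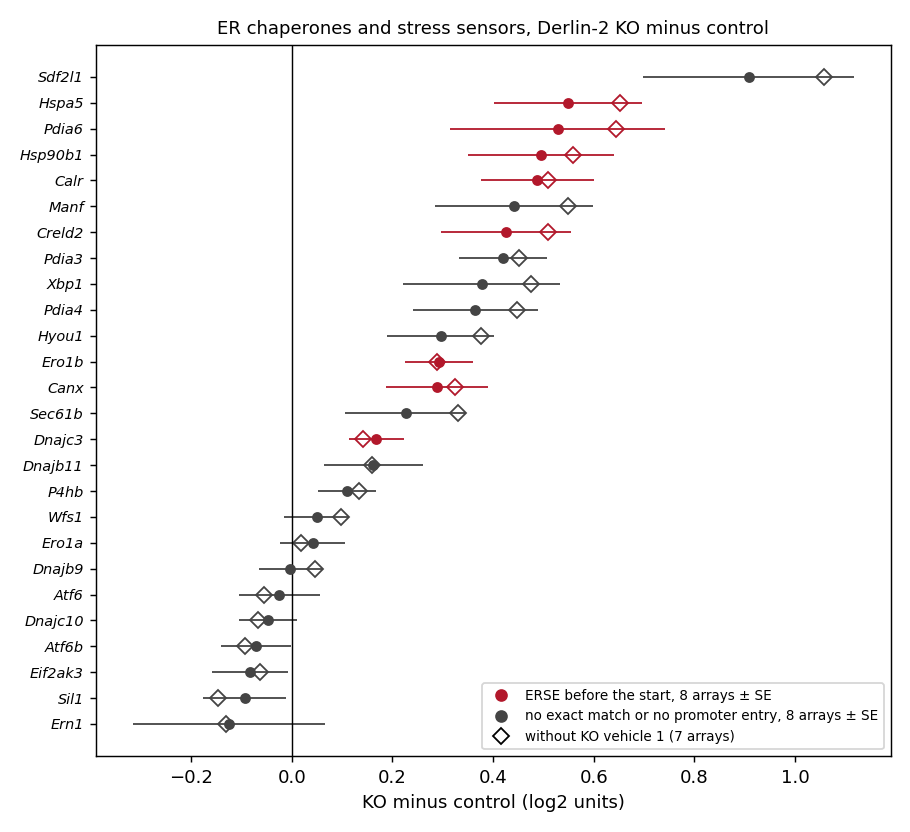
Change of each of the 26 tested ER chaperone and stress sensor genes in Derlin-2 KO (x axis, KO minus control in log2 units; filled points, 8 arrays with SE bars; open diamonds, 7 arrays without the array labelled KO vehicle 1). Red marks genes with an exact ER stress response element in the 250 bases before their start; all 8 of them lie above 0, and leaving out the doubtful array moves most of the larger changes to the right.

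The ER stress response element (ERSE) binds NF-Y and ATF6, and promoters were searched for its consensus because the chaperone genes stood together. The letters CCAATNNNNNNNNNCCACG were searched on both strands in the 250 bases before each start in RefSeq's GRCm38.p6 promoter table. They occurred in 19 of 12915 tested genes with a promoter entry (0.147%) and in 8 of 22 chaperone list members with one (36.4%). Chaperone genes are known to be raised through this element, so these shares describe promoters and are no result of the KO. The promoters of Derl3 and of 4 chaperone genes are shown, with the element in capitals in whichever direction it lies.
Derl3 promoter (chr10:75893148-75893397, + strand): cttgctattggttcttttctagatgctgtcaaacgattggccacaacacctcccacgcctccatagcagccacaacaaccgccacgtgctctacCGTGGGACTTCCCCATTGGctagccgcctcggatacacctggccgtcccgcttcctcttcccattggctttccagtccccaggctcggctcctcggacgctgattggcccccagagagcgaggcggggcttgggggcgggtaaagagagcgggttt
Hspa5 promoter (chr2:34771840-34772089, + strand): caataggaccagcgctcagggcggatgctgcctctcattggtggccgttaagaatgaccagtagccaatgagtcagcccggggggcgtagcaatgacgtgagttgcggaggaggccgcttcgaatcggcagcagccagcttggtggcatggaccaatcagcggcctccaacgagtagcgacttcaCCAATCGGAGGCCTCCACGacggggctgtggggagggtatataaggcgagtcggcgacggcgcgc
Hsp90b1 promoter (chr10:86705445-86705694, - strand): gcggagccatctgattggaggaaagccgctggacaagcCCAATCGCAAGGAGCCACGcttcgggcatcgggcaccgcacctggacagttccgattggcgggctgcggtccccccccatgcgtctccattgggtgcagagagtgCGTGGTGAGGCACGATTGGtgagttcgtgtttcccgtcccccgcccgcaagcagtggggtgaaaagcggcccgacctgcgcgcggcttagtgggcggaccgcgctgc
Creld2 promoter (chr15:88819396-88819645, + strand): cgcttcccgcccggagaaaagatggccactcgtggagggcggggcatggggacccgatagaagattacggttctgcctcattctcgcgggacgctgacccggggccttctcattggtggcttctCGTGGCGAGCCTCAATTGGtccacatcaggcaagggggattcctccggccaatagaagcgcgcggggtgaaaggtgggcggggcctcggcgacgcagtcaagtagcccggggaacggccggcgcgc
Calr promoter (chr8:84846932-84847181, - strand): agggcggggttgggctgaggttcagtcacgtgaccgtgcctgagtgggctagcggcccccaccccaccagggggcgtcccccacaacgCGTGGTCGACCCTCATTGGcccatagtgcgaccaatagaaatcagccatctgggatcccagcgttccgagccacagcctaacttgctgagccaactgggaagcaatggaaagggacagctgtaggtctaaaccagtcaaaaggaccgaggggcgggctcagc
In Hspa5 the element spans 65 to 47 bases before the start, and in Derl3 it lies on the other strand at 156 to 138. Hsp90b1 holds 2 copies.

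The 8 chaperone genes with an exact element were Calr, Canx, Creld2, Dnajc3, Ero1b, Hsp90b1, Hspa5 and Pdia6. All 8 were higher in KO at an unadjusted p under 0.05, with a median change of 0.46 and, on the array labelled KO vehicle 1, levels above all 4 controls for all 8. The 14 list members with a promoter entry and no exact match had a median of 0.08, with 4 higher at an unadjusted p under 0.05 (background 3.85%). For 3 of these 14 all 4 KO arrays lay above all 4 controls (background 1.69%), as they did for 4 of the 8 with an exact element. A lack of match says only that these letters are not in that window. The 19 tested genes with the element were picked by sequence, in a search made after the chaperone values were seen. Of the 19, 16 were higher in KO, 12 at an unadjusted p under 0.05 and 0 lower at that p, with a median of 0.29. Of the 12915 genes with a promoter entry 480 were higher at that p and 935 lower, with a median of -0.02. The 19 include the 8 chaperone genes that prompted the search, and the other 11 had a median of 0.14 with 8 higher. Of these 11, 4 were higher at an unadjusted p under 0.05: Derl3, the zinc finger gene Zfp57 at 0.75 (SE 0.14), the acetyl-CoA carboxylase gene Acacb at 0.33 (SE 0.08) and Hnrnpa3 at 0.23 (SE 0.06), each with an adjusted p of at least 0.379. The other 7 included Syvn1 at 0.10, a ubiquitin ligase of ERAD. The array labelled KO vehicle 1 was above all 4 controls for 15 of the 19, against 23.2% of all genes. None of the 19 passed the adjusted test.

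ERAD components lay on both sides of 0. Of 31 tested members of the Derlin and ERAD list, 15 were higher and 16 lower, with a median of -0.03 over 8 arrays and 0.00 over 7. At an unadjusted p under 0.05, 1 was higher (Derl3; background 3.85%) and 4 were lower (background 7.5%): Derl2 itself, the lectin genes Os9 at -0.18 (SE 0.06) and Erlec1 at -0.15, and Fam8a1, a partner of the ligase Hrd1, at -0.17. Without control 4PBA 2 or KO 4PBA 1 the number lower at that p was 0. Os9 had control levels from 3.58 to 3.66 and KO levels of 3.59, 3.43, 3.35 and 3.37, where the array labelled KO vehicle 1 lay among the controls. Sel1l, the adaptor of that ligase, had control levels from 4.32 to 4.40 and KO levels of 4.55 and 5.08 with vehicle and 4.39 and 4.44 with 4PBA. Its change was 0.25 (SE 0.13), or 0.11 without KO vehicle 2, and a second probe had 0.09 (SE 0.06). Herpud1 had 0.02 and Vcp, the ATPase that pulls substrates out of the membrane, -0.09.

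Targets of ATF4 and CHOP, the arm downstream of PERK, had a list median nearer to 0. Of 29 tested, 19 were higher and 10 lower, with a median of 0.12 (0.15 over 7 arrays), and none passed the adjusted test. At an unadjusted p under 0.05, 6 were higher and 1 lower (background 3.85% and 7.5%), and over 7 arrays 8 and 1 (background 4.2% and 7.35%). The median was 0.02 without control 4PBA 2, 0.06 without KO vehicle 2 and 0.07 without control 4PBA 1 or KO 4PBA 2, and without either of the last 2 arrays 3 genes were higher at that p. Trib3, a pseudokinase that CHOP induces, had control levels of -2.03, -1.81, -1.80 and -2.10 and KO levels of -1.81 and -1.25 with vehicle and -0.92 and -0.73 with 4PBA. The array labelled KO vehicle 1 lay within the controls for Trib3 and the 3 other KO arrays above them, a change of 0.76 (SE 0.20, adjusted p 0.384) over 8 arrays and 0.94 (adjusted p 0.278) over 7. Slc7a3, a cationic amino acid transporter, had controls from -2.39 to -2.23, -2.32 on the array labelled KO vehicle 1, 0.43 on vehicle 2 and -0.94 and -1.07 with 4PBA. Its change of 1.35 (SE 0.52, adjusted p 0.418) became 1.90 (adjusted p 0.278) over 7 arrays and 0.80 without KO vehicle 2.

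Gdf15, a secreted stress cytokine, was 0.80 higher (SE 0.18, adjusted p 0.379), with KO levels from -4.57 to -4.10 above controls from -5.45 to -4.71. The probe was not well above background on 1 control, and under normexp the difference was 0.33. Chac1, which breaks down glutathione, had 0.47, Atf5 0.38 and the arginine transporter Slc7a1 0.25, while Pck2 had -0.20. Slc7a1 was 2.23 to 2.25 in controls and 2.27, 2.53, 2.58 and 2.61 in KO arrays, with the array labelled KO vehicle 1 next to the controls. Atf4 itself had 0.22 (SE 0.13), Ddit3, which encodes CHOP, 0.15 (SE 0.08) and Asns 0.28 (SE 0.18; 0.09 without KO vehicle 2). Without KO 4PBA 2 Atf4 had 0.11, and without control 4PBA 2 it had 0.14. For 7 of the 29 the 3 KO arrays other than vehicle 1 lay above all controls (background 3.55%), whereas that array lay above all controls in 5 of 29 (background 23.2%) and below in 10 (background 13.7%). Among the 7 it was above all controls for 3, beside 47.7% of all genes with that pattern. A composite element of ATF4 (CARE), searched as TGATGNAA on both strands, occurred in 7 of 24 list members with a promoter entry (29.2%) and in 2.7% of tested genes. The 7 had a median change of 0.03. No tested gene held both elements.

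**Figure D3:**
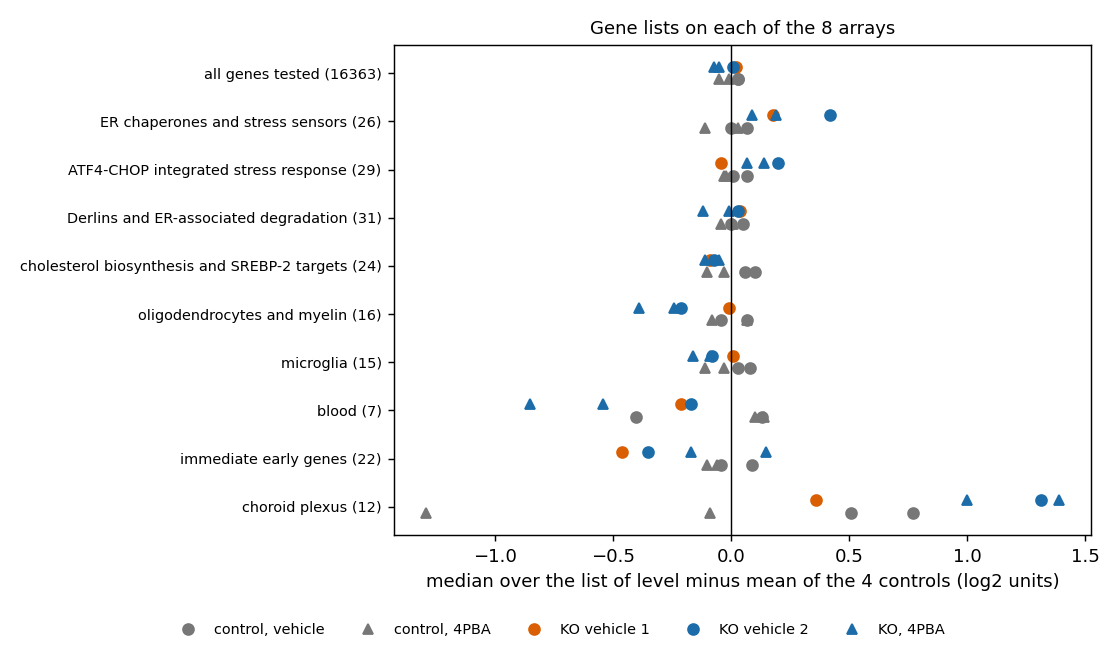
Median over each gene list of the level minus the mean of the 4 controls (x axis, log2 units), 1 point for each of the 8 arrays (circles vehicle, triangles 4PBA; number of tested genes in brackets). The 4 KO arrays lie above the 4 controls for ER chaperones, the array labelled KO vehicle 1 (orange) lies within the range of the controls for myelin and choroid plexus genes, and 1 control with 4PBA has the lowest choroid plexus value at -1.29.

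Of 16 myelin genes tested, 14 were lower in KO (55.3% of all genes were), with a median of -0.23 over 8 arrays and -0.27 over 7, and none passed the adjusted test. At an unadjusted p under 0.05, 7 were lower (background 7.5%) and 1 was higher (background 3.85%). Without KO 4PBA 1 the count at that p in either direction was 4, without KO vehicle 2 it was 5, and over 7 arrays it was 10. Opalin, a membrane protein of myelinating oligodendrocytes, had control levels of -0.52, -0.34, -0.30 and -0.53 and KO levels of -0.74, -1.20, -0.91 and -0.98. All 4 KO arrays lay below the controls, a change of -0.53 (SE 0.11, adjusted p 0.379), or -0.62 over 7 arrays. Mag, a glycoprotein next to the axon, had controls from 4.20 to 4.35 and KO levels of 4.20, 3.90, 3.70 and 3.90, where the array labelled KO vehicle 1 lay at the lowest control. The change was -0.34 (SE 0.10) for Mag (-0.43 over 7 arrays), -0.34 for Mog and -0.25 for Aspa, which releases acetate from N-acetylaspartate in oligodendrocytes.

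Not every myelin gene shared that direction: Mbp, which encodes a main protein of the sheath, had 0.13 (SE 0.10), and Ermn, a cytoskeletal protein of oligodendrocytes, was higher by 0.31 (SE 0.11, adjusted p 0.411). For 9 of 16 myelin genes the 3 KO arrays other than vehicle 1 lay below all controls (background 8.36%), and that array did so for 3 of 16 (background 13.7%). Among the 9 it was below all controls for 2, beside 37.1% of all genes with that pattern. In whole tissue fewer cells of a type and less RNA per cell cannot be told apart. Oligodendrocyte precursor genes had a median of -0.05 (8 tested, 0 at an unadjusted p under 0.05 in either direction). For cholesterol synthesis genes the median was -0.10, and 20 of the 24 tested were lower (55.3% of all genes were), 4 of them at an unadjusted p under 0.05 (background 7.5%), with 1 higher at that p (background 3.85%). Without control vehicle 2 the count in either direction was 1. Cyp51, a sterol demethylase, had -0.25 (SE 0.08), Ebp -0.21, Msmo1 -0.20 (-0.01 on a second probe) and Sc5d -0.15, none of which passed the adjusted test.

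Genes of the choroid plexus, the tissue of the ventricles that makes cerebrospinal fluid and can be carried along in dissection, were higher in KO for 12 of 12 tested. The median change was 1.05 over 8 arrays and 1.44 over 7, and 0.17 with vehicle beside 1.87 with 4PBA. Ttr, which carries thyroid hormone, had control levels of 6.89 and 7.18 with vehicle and 4.86 and 6.25 with 4PBA, and KO levels of 6.78, 7.84, 7.22 and 7.66. Aqp1, a water channel, had -0.29, 0.21, -2.16 and -0.57 in controls and 0.04, 1.61, 0.78 and 1.32 in KO, a change of 1.64 (SE 0.53, adjusted p 0.397). Kcne2 had 1.44 and Folr1 1.27. The lowest array for Ttr, Aqp1, Kcne2 and Folr1 was control 4PBA 1, without which the list median was 0.62 and the Ttr change 0.64. At an unadjusted p under 0.05, 4 of 12 were higher over 8 arrays (background 3.85%) and 12 of 12 over 7 (background 4.2%). The count was 0 without KO vehicle 2 or KO 4PBA 2, 1 without KO 4PBA 1 and 7 without control vehicle 2. None of the 12 passed the adjusted test, and all 12 were well above background on all 8 arrays. For 9 of 12 the 3 KO arrays other than vehicle 1 lay above all controls (background 3.55%), and the array labelled KO vehicle 1 was above all controls for 0 of 12, while it was above them for 16 of 26 chaperone genes. The 3 KO arrays with the highest choroid plexus medians also had the 3 lowest myelin medians (-0.21, -0.39 and -0.24, controls -0.08 to 0.07), and their ATF4 target medians were 0.20, 0.07 and 0.14 beside -0.04 on the array labelled KO vehicle 1 (controls -0.03 to 0.07). The chaperone medians of those 3 arrays were 0.42, 0.09 and 0.19, beside 0.18 on the array labelled KO vehicle 1 (controls -0.11 to 0.07). The part of choroid plexus tissue in the chaperone, myelin and ATF4 target values was not tested.

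Lists for 7 further cell types or states had medians between -0.18 and 0.04. Purkinje cell genes had a median of -0.05 (14 tested), granule neuron genes 0.04 (16), inhibitory interneuron genes -0.12 (10), astrocyte and Bergmann glia genes -0.09 (17), endothelial and pericyte genes 0.01 (18), brainstem neuron genes -0.18 (7) and cell cycle genes -0.08 (25). Of the 10 interneuron genes 3 were lower at an unadjusted p under 0.05 (background 7.5%), and for 4 the 3 KO arrays other than vehicle 1 lay below all controls (background 8.36%). Leaving out any array but KO vehicle 1 brought the 3 to 1, or to 0 without control vehicle 1. The brainstem median was -0.02 over 7 arrays. The Purkinje cell glutamate transporter Slc1a6 had -0.30 (SE 0.10) and the glial one Slc1a3 -0.24 (SE 0.08). Within the vessel list Slc2a1, the glucose transporter of the barrier, had -0.33 (SE 0.08) and the tight junction gene Cldn5 0.39 (SE 0.11), so the members lay on both sides of 0. For microglia genes the median was -0.08, and 3 of 15 were lower at an unadjusted p under 0.05 (background 7.5%), among them Tmem119 at -0.33 (SE 0.09) and P2ry12 at -0.35 (SE 0.10), both surface markers of resting microglia. Disease-associated microglia genes had -0.08 (12 tested), reactive astrocyte genes 0.05 (12), interferon-stimulated genes 0.07 (17), cytosolic heat shock genes 0.01 (14) and oxidative stress genes -0.04 (18). None of these genes passed the adjusted test. Of 7 tested genes of the blood list, which names S100a8 and S100a9 beside red cell genes, 6 were lower. Of these, 4 were lower at an unadjusted p under 0.05 (background 7.5%), and none passed the adjusted test. Without control vehicle 2 or any single 4PBA array that count was 2. Their median was -0.44, or -0.11 with vehicle and -0.74 with 4PBA. The list medians by array were -0.21 and -0.17 on the vehicle KO arrays, within the controls (-0.40 to 0.14), and -0.54 and -0.85 on the 4PBA KO arrays, below them. Alas2, the first enzyme of haem synthesis in red cells, had -0.73 (SE 0.22), Slc4a1 -0.58 (SE 0.15) and Hba-a2 -0.44 (SE 0.16), and Alas2 had KO levels from -0.61 to 0.03 below controls from 0.08 to 1.01.

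The KO effect was then taken within each injection, with 2 arrays against 2 and a mean per group in the fit of 8 arrays. With vehicle 22 genes passed (0.134%), 3 higher and 19 lower, and with 4PBA 11 passed (0.0673%), 8 higher and 3 lower. Of these, 9 with vehicle and 3 with 4PBA were well above background on all 8 arrays. Immediate early genes, which neurons and vessels switch on within minutes of activity or stress, had a median change of -0.49 with vehicle and 0.02 with 4PBA. Fos fell with vehicle, from 1.69 and 1.97 in controls to -0.88 and -0.37 in KO, a change of -2.45 (adjusted p 0.0409), while with 4PBA the controls had 1.28 and 1.39 and the KO arrays 1.23 and 1.74. Nr4a1, a nuclear receptor of the same kind, fell from 2.35 and 2.47 to 1.44 and 1.24 (adjusted p 0.0386). Per1, a clock gene that activity also induces, fell from 3.99 and 3.77 to 2.49 and 2.48 (adjusted p 0.0196). Npas4, a neuron-specific activity gene, had -1.44 and -0.78 in vehicle controls and -3.83 and -2.55 in vehicle KO, which did not pass (adjusted p 0.299). Both vehicle KO arrays were low, the array labelled KO vehicle 1 included. Since that array has a control level of Derl2, only 1 vehicle KO array had lost Derl2, and the Derl2 change with vehicle was -0.38. Over both injections together the change of Fos was -1.15 over 8 arrays and -0.79 over 7. The median of the immediate early list was then -0.23 over 8 arrays and -0.16 over 7.

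The difference between the KO effect with 4PBA and with vehicle was tested as an interaction, which 21 genes passed (0.128%), 18 with a higher and 3 with a lower KO effect under 4PBA. The 5 with the smallest p were Spata22, 4930518P08Rik, Tex16, Fam83c and St8sia2, none of them well above background on all 8 arrays, and their fitted values are not given here. Of the 21, 5 had a signal well above background on every array, and these are described, a choice made after the values were seen. Klf2, a flow-responsive factor of endothelium, fell with vehicle from 0.88 and 0.92 to -0.25 and -0.29, with 4PBA had 0.43 and 0.60 in controls and 0.54 and 0.50 in KO, and had an interaction of 1.17 (adjusted p 0.0451). Apold1, an early response gene of endothelium, fell with vehicle from -2.24 and -2.36 to -3.82 and -3.89, and had an interaction of 1.85 (adjusted p 0.0239). Ntn4, a laminin-like protein of basement membranes, had 1.54 (adjusted p 0.0262), Hebp2 -1.33 (adjusted p 0.0186) and Scml4 -2.38 (adjusted p 0.0436). For Hebp2 the vehicle controls at -2.08 and -2.05 stood apart from the 6 other arrays at -0.95 to -0.76. For Scml4 the 4PBA controls at -1.78 and -1.34 stood apart from the others at -3.91 to -3.47. Without any 1 of the 4 vehicle arrays the interaction passed for 0 genes, and with vehicle 4 genes passed without KO vehicle 2, 7 without either vehicle control and 14 without KO vehicle 1. With 4PBA the number ran from 0 without either vehicle control to 46 without KO 4PBA 1. The other 3 genes well above background on all arrays that fell with vehicle were Coq10b, from 0.54 and 0.52 to -0.26 and -0.36, Plk5 and Ccdc154.

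**Figure D4:**
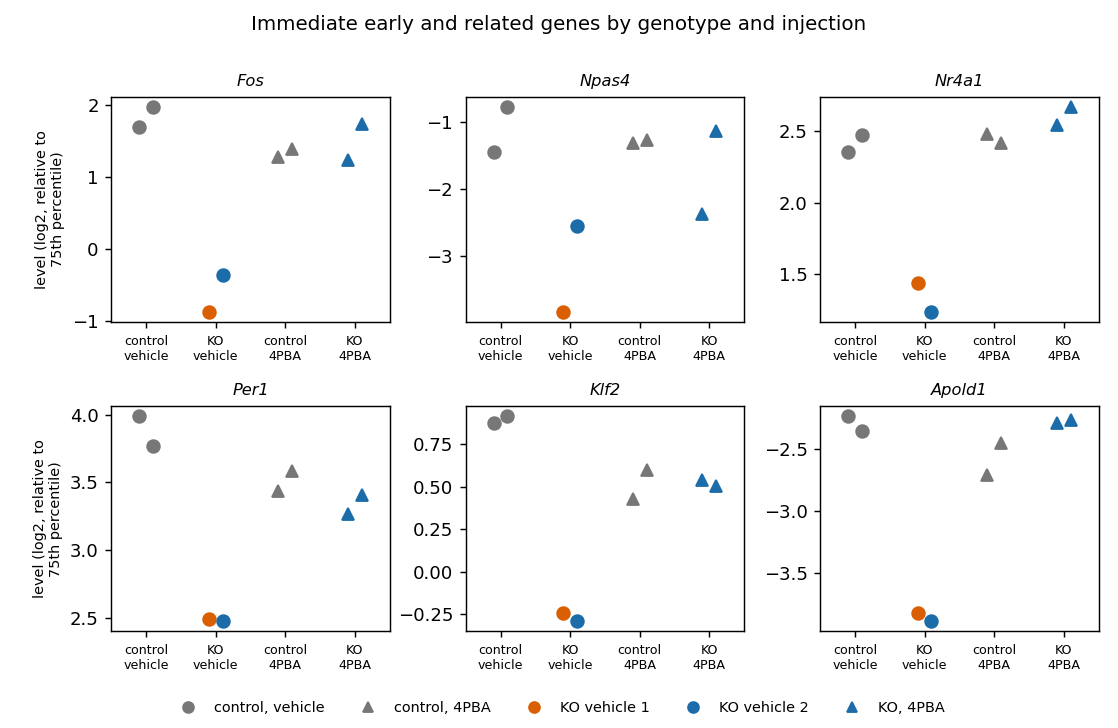
Levels of 6 genes (y axis, log2 intensity relative to the 75th percentile of the array) in the 4 groups of 2 arrays, 1 point per array. In the vehicle groups both KO arrays lie below both controls for every gene, and in the 4PBA groups the KO arrays lie within 0.5 of a control except for 1 Npas4 value at -2.37.

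Genes beside the altered locus were inspected next. Of the 10 genes nearest to Derl2 in the reference order, 7 were tested, and their changes ran from -0.10 to 0.14, with the kinetochore gene Mis12 highest (adjusted p 0.452; -0.08 on a second probe). Of those nearest to Nes, whose promoter drives Cre, 6 were tested and the changes ran from -0.37 for the myelin gene Hapln2 to 0.17, with none passing.

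The KO effect in the Derlin-2 line was set against that in the Derlin-1 line in 1 fit of all 24 arrays, each effect within its own slides. The difference passed for 8 of 16354 genes (0.0489%), 4 higher and 4 lower, the 5 largest for Fam83c, St8sia2, Olfr354, Gm8013 and Gm38450, and none of the 8 was well above background on all 8 arrays or belonged to a list used here. For Derl2 the difference was -0.82, and -1.13 without the array labelled KO vehicle 1, which has no test because its Derl2 level singled that array out. In the fit of all 24 arrays the Derlin-1 effect had a list median of 0.50 for chaperones, 0.72 for ATF4 and CHOP targets, 1.12 for microglia and 0.99 for interferon genes, beside 0.26, 0.12, -0.08 and 0.07 in the Derlin-2 line. For single genes Derl3 had 2.0 in the Derlin-1 line beside 1.34, Cox6a2 3.24 beside 1.07, Trib3 2.83 beside 0.76 and Hspa5 0.995 beside 0.55, and the differences of these 4 had adjusted p from 0.135 to 0.573. Of 10 genes that led in the Derlin-1 line, 5 had a value above 0 and 5 below 0 in the Derlin-2 line. The 10 include both rises and falls in the Derlin-1 line, as for Gdf15 at 3.72 and Sh3bgr at -1.72. That split by sign therefore does not say whether directions were shared. At an unadjusted p under 0.05, 5 were higher (background 3.85%) and 1, Sh3bgr, was lower (background 7.5%), at -0.20 beside -1.72. With all 24 arrays in the fit 1 of the 10 had an unadjusted p under 0.05, beside 1249 of 16355 genes tested. Those 10 were chosen on the Derlin-1 arrays with the results known.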

How the data were processed

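Cerebellar RNA of the Derlin-2 line was measured on 8 single-colour Agilent arrays. Spots were read with Agilent Feature Extraction 10.7.1.1, per the submitters' processing notes; the deposited value is a linear intensity after spatial background correction, per the file headers. The authors' series table held the same linear intensities. Outlier spots (213 to 637 an array) were set missing, spots of a probe averaged (56605 probes) and symbols taken from RefSeq's GRCm38.p6 table by accession (32994 probes). From each log2 signal the 75th percentile of all signals on that array was subtracted. A probe was kept if both arrays of any group had it well above background, and the brightest probe stood for a gene. limma 3.58.1 (R 4.3.3) fitted genotype with injection as a block on 8 or 7 arrays, which left 5 or 4 residual degrees of freedom; the number of arrays limits precision (median SE 0.0825). Tests were two-sided, adjusted by Benjamini-Hochberg over all genes, with calls at 0.05. The fit was tested on simulated data. The normexp alternative (offset 50) used median foreground signals, since the files hold no mean signal. Derlin-1 groups were divided by slide.

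The rule for named genes took the Derlins, genes called over 8 or 7 arrays and above background on all of them, otherwise the 5 smallest p in each direction, up to 3 of each list, leading genes of the Derlin-1 line, neighbours of Derl2 and Nes, the 5 smallest interaction p and the 5 largest called differences from the Derlin-1 line; not all are described, and others were named after their values were seen. The comparison and the 23 gene lists were chosen with earlier results of these data known. Alternatives covered scaling, filters, probes, fits, weights, the replicate number and each array left out. Some genes are not reported here.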

Additional observations from a re-analysis of the deposited data

Results flagged for a closer look

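In groups of 4 arrays, 6 of 178 groups (89 of the genes named, KO and control each) held an array far from the 3 others by Dixon's criterion, where chance gives about 1 in 20. Derl3 was -0.58 on the array labelled KO vehicle 2, above the 3 other KO arrays. Asns was 4.96 and Dnajb9 1.87 on the same array, each above the other KO arrays. Lca5 was -1.47 on the array labelled KO vehicle 1, below the other KO arrays, and Sh3bgr was 2.69 on that array, above them and within the controls. Fam8a1 was -0.89 on control 4PBA 1, below the other controls.

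The interaction test between injections passed for 6 of these 89 genes. It also passed for 4930518P08Rik, Tex16, Fam83c and St8sia2, which are named above and are not among the 89. The effect with 4PBA minus that with vehicle was 1.17 for Klf2, 1.85 for Apold1, 1.54 for Ntn4, -1.33 for Hebp2 and -2.38 for Scml4. For Spata22 the fitted value was 5.16, with levels of -2.91 and -2.98 on the vehicle controls and no signal well above background on the 6 other arrays. It entered the test only through the vehicle controls, where it is high, so the fitted size is no bound and the test supports nothing. Without any 1 of the 4 vehicle arrays 0 genes passed this test.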

How the results depend on the processing

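Over 8 arrays 1 gene passed; scaling by the median, quantile normalization, the series table, array weights and an intensity trend also gave 1 (with the trend 1190007I07Rik, which was lower), while normexp, no filter, a filter on every array and the replicate block gave 0, every probe 6, a mean per group 15 and all 24 arrays 17. Leaving out 1 array gave 0 to 1. Over 7 arrays 0 passed; quantile and normexp gave 1 each, the intensity trend 3, a mean per group 9, all 24 arrays 43, and leaving out 1 more array 0 to 2. With vehicle 22 passed, and 13 under normexp, 6 with no filter, 10 with the replicate block and 4 to 17 with 1 array left out. With 4PBA 11 passed, and 3 under normexp, 3 with no filter, 22 with all 24 arrays, 17 with the replicate block and 0 to 46 with 1 array left out. For the interaction 21 passed, and 3 under normexp, 0 with no filter and 0 to 13 with 1 array left out. For the difference from the Derlin-1 line 8 passed, and 4 under quantile normalization. The cause was not tested. Where leaving out an array left a group with 1 array, that array was assumed to vary like the other groups.

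The chaperone median of 0.26 was 0.16 under normexp and 0.20 to 0.31 with 1 array left out, and 8 to 14 of its 26 genes were higher at an unadjusted p under 0.05 over all 19 alternatives. ATF4 target medians ran from 0.02 to 0.15, choroid plexus medians from 0.62 to 1.44 and myelin medians from -0.27 to -0.17. Of 1687 values of 89 genes under the alternatives 3 turned direction, for Atf6 and Edem2. Atf6 (-0.07 to 0.05 with 1 array left out) was 0.01 without control vehicle 2 and 0.05 without KO vehicle 2. Edem2 (-0.19 to 0.35) was -0.19 without KO 4PBA 2, where another of its probes became the brightest. Over 8 arrays these Edem2 probes had 0.27 (SE 0.15) and -0.25 (SE 0.09). Pairing by replicate number was not borne out: same-numbered KO and control arrays deviated with r of -0.06 (vehicle) and 0.04 (4PBA), so the replicate block shares only a number.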
